A study of Mus musculus with 2 samples.

Results

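The maternally methylated imprint control regions of 10 loci were examined by reduced representation bisulfite sequencing (RRBS) in 1 library of sorted *Rex1*-high and 1 library of sorted *Rex1*-low mouse embryonic stem cells (ESCs). They were taken as 11 windows fixed by mm9 position around *Peg3*, *Snrpn*, *Kcnq1ot1*, *Mest*, *Peg10*, *Plagl1*, *Grb10*, *Igf2r* and *Impact*, with 2 windows at *Gnas*. The rule uses positions of known loci and no methylation value, although it was set with earlier results of these data known. The windows held 444 of the 1707425 CpGs that had a line of at least 5 calls in both libraries, where a line is 1 entry of the deposited tables and a call is 1 read scored as methylated or unmethylated. In the *Rex1*-high library they held 857 of 3664473 such lines, and in the *Rex1*-low library 824 of 2884265.

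Both populations came from 1 reporter line, Rex1-dGFP, which is built in E14 ESCs of 129/Ola background with a destabilized GFP at *Rex1*, a pluripotency gene. Cells were grown on gelatin with LIF and 10% serum and then sorted by reporter level. DNA was cut with MspI at CCGG and with TaqI at TCGA, so the regions seen are those near these sites. Each state was represented by 1 library, and the tests below compare these libraries, with intervals that cover counting error only. The *Rex1*-high library held 60718476 calls and the *Rex1*-low library 61024229.

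Imprinted genes are expressed from the copy of one parent. Most are controlled by a germline differentially methylated region, which in this group is methylated in the oocyte and unmethylated in sperm, and the difference is then held in the cells of the embryo while the rest of the genome loses and regains its methylation. DNMT1 copies the mark at replication, and ZFP57, with TRIM28, binds the methylated form of the hexamer TGCCGC and protects it. RRBS as done here gives no parent of origin, and a region methylated on 1 of 2 copies in every cell would read 50%.

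All 11 windows read under 50% in both libraries, and all were higher in *Rex1*-low cells. Over the alternatives tried, only *Snrpn* at a minimum of 20 calls per line (53.6% and 60.0%) and *Peg3* in *Rex1*-low cells with the higher line of each CpG (52.9%) passed 50%. The windows are named here by their genes and positions, since parental origin was not measured. The level of a window, the mean over its CpGs, had a median over windows of 19.1% in *Rex1*-high cells and 26.8% in *Rex1*-low cells. The increase had a median of 9.56 percentage points, against 23.5 points for the 162599 tiles of 2500 bp into which the covered genome was cut. Of all these tiles 96.8% were higher in *Rex1*-low cells, so the shared direction of the windows was also that of most tiles. The share was 88.3% for tiles with 20 to 39 measured CpGs and 85.2% for those with 40 or more. Tiles with more measured CpGs had smaller median increases, of 3.93 points with 20 to 39 CpGs and 1.496 points with 40 or more. The methylated calls were unevenly placed. Most CpGs in the windows were near 0 in *Rex1*-high cells, with a median CpG of 5.88%, and a small number of lines stood near 100%. Where the sequence could be matched, every line at or above 80% lay on a CpG of an MspI or TaqI site.

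The sequence of *Plagl1* shows this arrangement, and its window is the only one in which a promoter of the reference table could be placed. *Plagl1* encodes a zinc finger transcription factor that restrains cell growth, and its promoter lies in its control region. The 250 bases before its start in RefSeq (GRCm38.p6, chr10:13090582-13090831, plus strand) are shown with MspI sites in capitals.
Plagl1: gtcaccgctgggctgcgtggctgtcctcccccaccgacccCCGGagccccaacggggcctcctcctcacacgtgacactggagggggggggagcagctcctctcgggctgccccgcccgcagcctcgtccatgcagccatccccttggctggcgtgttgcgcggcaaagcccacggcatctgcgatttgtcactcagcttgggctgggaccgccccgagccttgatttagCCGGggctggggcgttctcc
The *Igf2r* promoter (GRCm38.p6, chr17:12769707-12769956, minus strand) serves as a contrast. It belongs to one of the same loci but lies outside the window, and it is shown with MspI and TaqI sites in capitals.
Igf2r: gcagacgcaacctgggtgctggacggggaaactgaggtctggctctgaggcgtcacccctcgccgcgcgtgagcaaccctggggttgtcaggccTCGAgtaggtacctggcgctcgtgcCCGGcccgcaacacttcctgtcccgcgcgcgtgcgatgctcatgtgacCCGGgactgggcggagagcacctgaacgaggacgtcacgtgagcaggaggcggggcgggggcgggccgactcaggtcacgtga
The *Plagl1* stretch held 19 CpGs, 2 MspI sites, no TaqI site and 1 copy of TGCCGC, counted on either strand. Of the 32851 promoter stretches of this length in the table, 47.1% held CCGG, 18.5% held TCGA and 8.68% held TGCCGC on either strand. These are matches of letters, and no protein was measured at them.

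Both sites of the *Plagl1* stretch had lines of at least 5 calls in *Rex1*-high cells, but only the second had them in *Rex1*-low cells. At the first, at -209 from the start, the only *Rex1*-high line read 10 of 10 calls methylated. The neighbouring CpG, at -198, had 2 lines that read 0 of 5 and 0 of 10. At the second site, at -19, the *Rex1*-high lines read 5 of 25 and 33 of 40, and the *Rex1*-low lines 2 of 6 and 26 of 28. Over the matched stretch, which runs to 50 bases past the start, the CpGs outside restriction sites gave 23 *Rex1*-high lines from 0 to 16.7% with a mean of 5.21%, and 16 *Rex1*-low lines from 0 to 26.9% with a mean of 17.8%. On the 8 such CpGs with lines in both libraries the means were 7.49% and 17.8%. The lines at restriction sites, 3 in *Rex1*-high and 2 in *Rex1*-low cells, ran from 20% to 100% and from 33.3% to 92.9%. They so lay above every other line of the same library, although on few lines.

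At promoters outside the windows the highest lines also lay on such sites, but the separation was not complete. Besides *Plagl1* and the overlapping *Hymai*, 4 promoters of these loci could be placed on the data, 1 of *Grb10*, 1 of *Igf2r* and 2 of *Gnas*, all outside the windows. Over these 4 and *Plagl1*, the *Rex1*-high library had 173 lines at CpGs outside restriction sites, all at or below 20% and with a median of 0. It had 28 lines at restriction-site CpGs, with a median of 60.0%, of which 8 were at or above 80% and 6 at or below 20%. In the *Rex1*-low library none of 167 lines outside the sites reached 80% and 154 were at or below 20%, while 9 of 30 at the sites reached it and 10 were at or below 20%. Site lines went down to 0 at *Grb10* and at the downstream *Gnas* promoter in both libraries, so a restriction site did not always read high. Outside the sites, over CpGs with lines in both libraries, mean line levels were 0.688% in *Rex1*-high and 1.38% in *Rex1*-low cells at *Grb10*, and 0.788% and 1.53% at *Igf2r*. Over CpGs chosen in the same way, outside the sites, they were 0.707% and 0.603% at the downstream *Gnas* promoter, and 1.89% and 15.2% at the upstream one. At the sites of the *Igf2r* stretch printed above and just past its start, lines ran from 31.3% to 95.8% in *Rex1*-high cells and from 13.9% to 95.7% in *Rex1*-low cells. The downstream *Gnas* promoter was placed on 33 measured CpGs, and a second placement on 5 fell short of the minimum of 10. The levels of windows given below average over all lines, those at restriction sites included. Fragment ends were filled in during library preparation, and whether cytosines added there enter the calls at the sites, which would not be methylation of the cells, was not tested. The sites could not be located in the other 10 windows, because no mm9 sequence was used here.

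**Figure D1:**
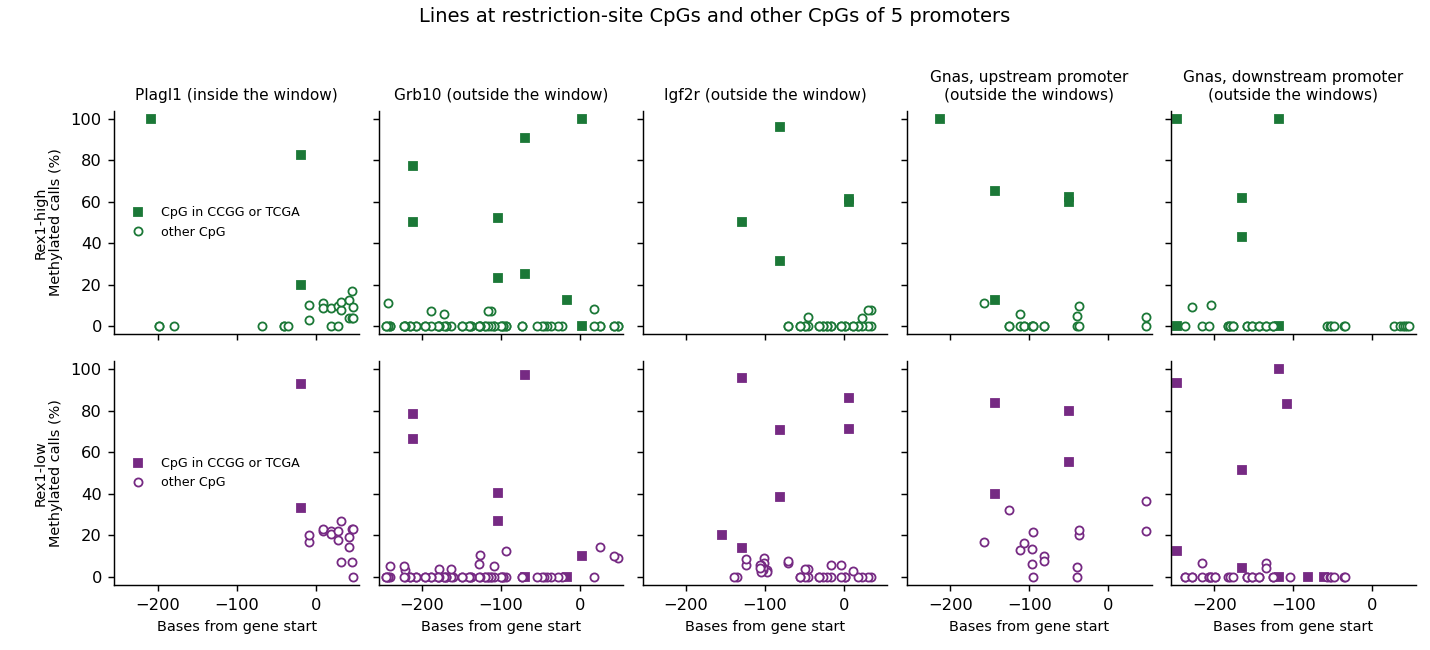
Methylated calls (%) of each deposited line of at least 5 calls against the distance from the gene start in bases, for 5 promoters, with the *Rex1*-high library above and the *Rex1*-low library below. Filled squares are CpGs in CCGG or TCGA and open circles are other CpGs; the circles lie at or below 16.7% in *Rex1*-high cells and at or below 36.4% in *Rex1*-low cells.

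The 11 windows are described below in groups by what their genes do, and each is given by 3 measures. The level is the mean over CpGs, the median CpG is less moved by a few high lines, and the stratified difference compares the libraries CpG by CpG, weighted by calls (Mantel-Haenszel), with a 95% interval. Tests were Cochran-Mantel-Haenszel tests with Benjamini-Hochberg adjustment over all tiles and windows together. All 11 windows passed an adjusted p of 0.05, as did 84.3% of tiles. The adjusted p of this chi-square test ran from 7.61e-37 at the upstream *Gnas* window to 0.0115 at *Peg10*, and every interval of the stratified difference lay above 0. With the further demand of a rise of at least 10 points in the level, 4 windows were called more methylated in *Rex1*-low cells, *Peg3*, *Snrpn*, *Mest* and *Plagl1*, against 75.3% of tiles. Of tiles with 20 to 39 CpGs 25.3% were called, and of those with 40 or more 2.45%. Which windows passed 10 points varied with the processing. At a minimum of 3 calls 3 were called, with *Peg3* (8.04 points) and *Snrpn* (7.46) lost and *Igf2r* (10.27) gained. When lines were merged before the minimum, which is closest to the study's own rule, 5 were called, with *Snrpn* (9.29) lost and *Kcnq1ot1* (13.2) and *Igf2r* (10.94) gained. With the deeper line of each CpG *Snrpn* (8.40) and *Plagl1* (9.83) fell short. None was called less methylated, against 0.0332% of tiles, and none was lower at an unadjusted p of 0.05. Fisher's exact test on summed calls gave the same counts, 4 and 0.

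Among the genes of transcription and RNA, *Peg3* encodes a zinc finger protein expressed from the paternal copy. Its window (chr7:6680001-6685000, mm9) rested on 6 CpGs and rose from 22.7% in *Rex1*-high to 43.1% in *Rex1*-low cells, a change of 20.4 points. The size of this change depended on the lines kept, at 8.04 points with a minimum of 3 calls, 8.35 by pooled calls, 6.83 with all CpGs kept in each library and 11.03 with lines merged. Its pooled calls were 62 of 272 and 109 of 350, and the stratified difference was 16.1 points (11.2 to 21.1). The deepest CpG of the window, at 6682991, read 1 of 56 and 13 of 88 calls. Of the deepest CpGs of the 11 windows, given here and below, that of *Kcnq1ot1* alone passed Fisher's exact test. Without the CpGs whose lines disagreed, one reaching 80% or more while its partner was at 20% or less, the window went from 6.57% to 25.1% over 4 CpGs. Of these 4, the CpG at 6681569 rested on 2 of 9 and 4 of 6 calls, and the other 3 went from a mean of 1.35% to 11.2%.

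*Snrpn* encodes a spliceosomal protein, and its control region is the imprinting centre of the Prader-Willi and Angelman cluster. The window (chr7:67147001-67151000) went from 20.7% to 36.9% over 12 CpGs, and its median CpG from 4.77% to 22.4%. Stratified by CpG, the difference was 13.8 points (8.0 to 19.7). Its deepest CpG, at 67149489, read 3 of 49 and 11 of 76 calls, a change that did not pass the test (Fisher's exact test, adjusted p = 0.562). With a minimum of 20 calls per line the window's change was 6.49 points and no longer passed (chi-square test as above, adjusted p = 0.229).

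*Plagl1* (window chr10:12809001-12812000) had 39 CpGs, of which 37 were higher in *Rex1*-low cells and 2 lower. Its level went from 12.4% to 24.2% and its median CpG from 4.84% to 19.9%. Stratified by CpG, the difference was 11.5 points (9.23 to 13.8). Only 1 of its CpGs had lines that disagreed in *Rex1*-high cells and none in *Rex1*-low cells. Its deepest CpG, at 12810694, lies in an MspI site of the overlapping *Hymai* stretch and read 41 of 89 and 49 of 72 calls.

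*Kcnq1ot1* is a long noncoding RNA, transcribed from within *Kcnq1* on the paternal copy, which silences its neighbours in cis, among them *Cdkn1c*. Its window (chr7:150480001-150483000) went from 17.9% to 26.8% over 17 CpGs. The median CpG went from 3.85% to 13.6%, and 15 CpGs were higher. The stratified difference, 14.9 points (11.3 to 18.5), exceeded the change in the level, which at 8.95 points fell short of the 10 required. The level change was 11.54 points at a minimum of 10 calls and 13.2 with lines merged. At a minimum of 20 calls it was 19.5 and with the deeper line 20.6, and the window was called in each of these settings. Other settings gave smaller changes, of 6.13 points at a minimum of 3 calls and 6.84 without CpGs whose lines disagreed. With all CpGs kept in each library the change was 7.46 points. The deepest CpG, at 150481311, read 1 of 57 calls in *Rex1*-high cells and 22 of 115 in *Rex1*-low cells, and passed the test (Fisher's exact test, adjusted p = 0.0127).

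*Mest* and *Peg10* share a chromosome but not a cluster. *Mest*, which encodes a hydrolase-like enzyme of mesodermal tissue, was called. Its window (chr6:30684001-30690000) went from 25.2% to 41.9% over 22 CpGs, and its median CpG from 12.1% to 31.9%. The change in level was 16.7 points. Over the alternatives it ranged from 10.46 points at a minimum of 20 calls to 21.8 at a minimum of 10 calls. With all CpGs kept in each library it was 11.06 points. The stratified difference was 18.2 points (13.2 to 23.3), and the deepest CpG, at 30689289, read 2 of 41 and 15 of 83 calls. *Peg10*, a retrotransposon-derived gene needed in the placenta, was called with the deeper line (11.85 points) and without CpGs whose lines disagreed (10.77), but not at the settings used throughout, and its change was 4.78 points with lines merged and 5.28 at a minimum of 3 calls. Its window (chr6:4696001-4700000) went from 16.2% to 25.7% over 16 CpGs, but its median CpG only from 7.50% to 10.1%. The stratified difference was 6.76 points (1.81 to 11.7). The deepest CpG, at 4697399, was intermediate in both libraries, with 23 of 45 and 42 of 55 calls.

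*Grb10* and *Igf2r* act on growth factor signalling, the first as an adaptor that binds the insulin and IGF1 receptors and the second as the receptor that removes IGF2. The *Grb10* window (chr11:11925001-11927000) had 79 CpGs and levels of 12.1% and 16.7%, a change of 4.52 points that became 10.28 at a minimum of 20 calls, where the window was called. Its median CpG was 2.94% and 6.25%, and 52 CpGs were higher and 24 lower. Stratified by CpG, the difference was 5.90 points (4.64 to 7.16). Its deepest CpG, at 11926305, read 1 of 71 and 6 of 160 calls, near 0 in both.

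The control region of *Igf2r* lies within the gene and is the promoter of *Airn*, an antisense RNA that silences *Igf2r* on the paternal copy. The window (chr17:12934001-12936000) went from 20.8% to 30.1% over 28 CpGs and its median CpG from 2.47% to 18.8%. The stratified difference was 8.78 points (5.88 to 11.7). The change in level was 10.94 points with lines merged, 11.57 at a minimum of 10 calls and 12.94 without CpGs whose lines disagreed, each enough for a call. With a minimum of 20 calls it was 3.18 points and no longer passed (chi-square test as above, adjusted p = 0.0836). The deepest CpG, at 12935243, was above 50% in both libraries, with 59 of 89 and 57 of 82 calls.

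*Impact* encodes a regulator of the GCN2 stress kinase, and its window is at chr18:13130001-13133000. Its level was 16.1% and 17.1% over 30 CpGs, a difference of 0.950 points, and its median CpG was 1.56% and 3.87%. With 14 CpGs higher and 8 lower, the stratified difference was 5.61 points (3.05 to 8.16). Over the alternatives the change in level ran from -0.0844 points, with the lower line of each CpG, to 5.88 points at a minimum of 20 calls. The deepest CpG, at 13131729, read 27 of 50 and 56 of 82 calls.

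*Gnas* encodes the stimulatory G protein subunit and gives several imprinted transcripts from separate promoters. The upstream window (chr2:174119001-174127000) covers the region of *Nespas* and *Gnasxl*, the downstream window (chr2:174153001-174155000) that of exon 1A. The upstream window was the best covered of the 11, with 150 CpGs and 5097 and 5777 calls, and went from 20.2% to 29.8% with a median CpG of 9.09% and 18.97%. In it 124 CpGs were higher and 25 lower, and the stratified difference was 9.93 points (8.48 to 11.4). The change in level, 9.66 points, passed 10 at a minimum of 20 calls (11.57) and with the deeper line (10.14), where the window was called. Its deepest CpG, at 174124704, read 53 of 83 and 67 of 92 calls.

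The downstream *Gnas* window went from 19.1% to 21.8% over 45 CpGs, with a median CpG of 6.20% and 11.1%. Here 27 CpGs were higher and 16 lower. The stratified difference was 7.23 points (4.81 to 9.64). The deepest CpG, at 174153935, read 15 of 45 and 36 of 82 calls. Its change in level ranged from 0.763 to 10.42 points over the alternatives, and at a minimum of 10 calls it exceeded that of the upstream window (9.27). The 2 windows of this locus were not tested against each other.

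**Figure D2:**
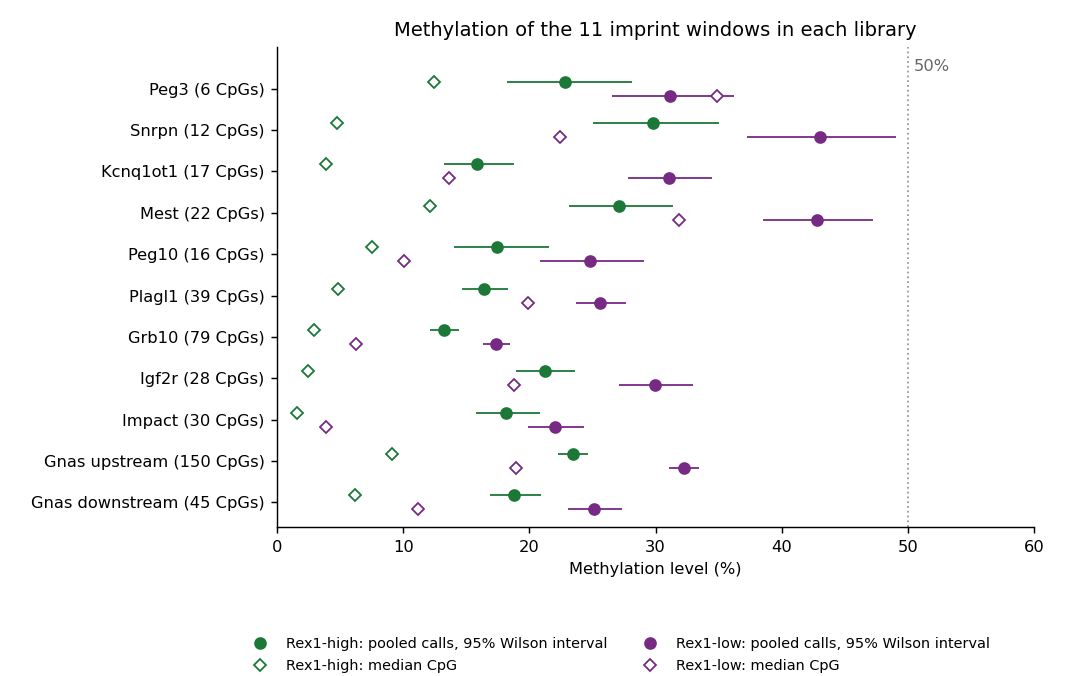
Methylation level (%) of the 11 windows in the *Rex1*-high (green) and *Rex1*-low (purple) libraries, with filled circles for pooled calls with their 95% Wilson intervals and open diamonds for the median CpG. Every circle lies below the dotted line at 50%, every purple circle lies right of its green one, and the median CpG lies below the pooled calls except for *Peg3* in *Rex1*-low cells.

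Of the 444 CpGs taken singly, 75.7% were higher in *Rex1*-low cells and 20.3% lower, against 66.1% and 14.1% of all CpGs. The other 18 of the 444 were equal in both libraries. Equal CpGs made up a larger share of all CpGs, and both the higher and the lower share were larger in the windows. By level, 72.7% were below 20% in *Rex1*-high cells and 60.6% in *Rex1*-low cells, against 38.3% and 34.0% of all CpGs. Intermediate CpGs, from 20% to 80%, made up 26.1% (Wilson interval 22.3 to 30.4) and 33.8% (29.5 to 38.3). Genome-wide this share was 50.8% in *Rex1*-high cells and 25.8% in *Rex1*-low cells, lower in the latter where that of the windows was higher. In *Rex1*-high cells 44 of the 116 intermediate CpGs were an average of lines that disagreed, one near 100% and one near 0. In *Rex1*-low cells this held for 28 of 150. Such CpGs also occurred elsewhere, at 11.7% of the CpGs with 2 lines in the windows and 9.66% genome-wide in *Rex1*-high, and 8.28% and 7.16% in *Rex1*-low cells.

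CpGs with 2 lines in both libraries that disagreed in neither numbered 279. Their median was 5.36% in *Rex1*-high cells and 13.0% in *Rex1*-low cells, with 227 higher and 46 lower. In every one of the 11 windows the median of these CpGs was higher in *Rex1*-low cells, although *Snrpn* kept 2 such CpGs, *Peg3* 3 and *Mest* 4. The best covered were *Gnas* upstream (99 CpGs, 9.76% to 18.9%), *Grb10* (65 CpGs, 2.94% to 5.26%) and *Plagl1* (35 CpGs, 5.36% to 19.9%). The increase was thus present without the lines that disagreed. Leaving out CpGs that average a high and a low line tends to lower the level, so the low baseline here was partly set by that choice. At *Snrpn* the median of the 2 CpGs, 36.6% in *Rex1*-high and 41.8% in *Rex1*-low cells, was the midpoint of a low and a high CpG. These CpGs read 3.66% and 69.5% in *Rex1*-high cells, and 11.6% and 72.0% in *Rex1*-low cells.

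**Figure D3:**
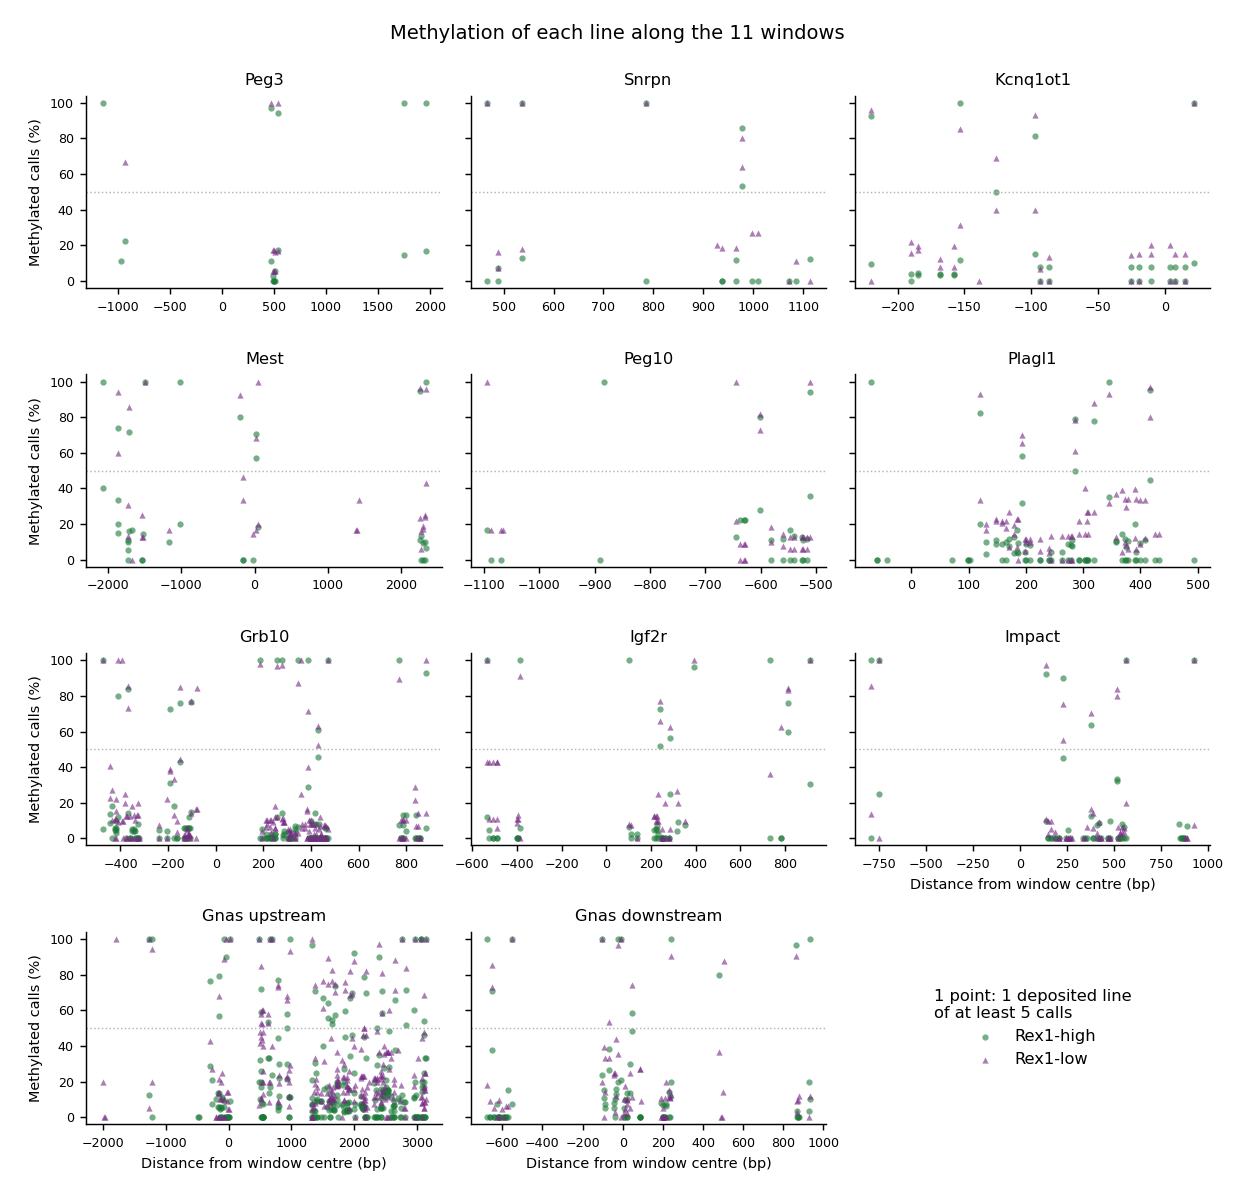
Methylated calls (%) of each deposited line of at least 5 calls against its distance from the window centre in bp, in 11 panels, with green circles for *Rex1*-high and purple triangles for *Rex1*-low. Most points lie below 20% (668 of 857 lines at or below it in *Rex1*-high, 535 of 824 in *Rex1*-low), while 114 and 203 lie between 20% and 80%, and lines at or above 80% (75 and 86) are present in every panel.

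Tested one at a time by Fisher's exact test with adjustment over all CpGs, 29 of the 444 CpGs (6.53%) were more methylated in *Rex1*-low cells and 0 less, against 12.6% and 0.162% of all CpGs. At an unadjusted p of 0.05 the counts were 77 (17.3%) and 4 (0.901%), against 25.4% and 0.537% of all CpGs. Direction was taken from summed calls, and by the mean over lines 2 of the 29 were lower in *Rex1*-low cells, 1 at *Kcnq1ot1* (50.9% to 48.1%) and 1 at *Grb10* (57.1% to 54.2%). Of the 29, 12 had lines that disagreed in a library and 12 had 2 lines in one library and 1 in the other. One or both of these held for 17, and neither for 12. At *Peg3*, for example, the CpG at 6682974 read 2 of 18 and 34 of 35 calls on its *Rex1*-high lines and 50 of 50 on the single line kept for *Rex1*-low, so its call rests on which lines were kept.

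A run of 5 neighbouring CpGs in the upstream *Gnas* window, singled out after the values were seen, did not have this fault. At 174123528, 174123533 and 174123549 the *Rex1*-high library read 1 of 26, 0 of 27 and 0 of 27 calls, and the *Rex1*-low library 15 of 28, 11 of 28 and 12 of 28. All 3 were called (adjusted p = 0.00235, 0.00671 and 0.00354, Fisher's exact test). The next CpGs, at 174123555 and 174123558, read 1 of 26 and 0 of 26 against 8 of 28 and 6 of 28, and did not pass Fisher's exact test (adjusted p = 0.123 and 0.117). Neighbouring CpGs share reads and are not independent. In the *Impact* window the CpG at 13132015, also chosen after its values were seen, had 2 like lines in each library and went from 19 of 58 to 51 of 62 calls (Fisher's exact test, adjusted p = 1.79e-05).

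The windows were compared with the sequence around them, 25 kb on each side. These flanks had a median level of 57.6% in *Rex1*-high cells and 81.0% in *Rex1*-low cells, and a median increase of 23.4 points, close to that of all tiles. By the mean over CpGs the window lay below its flanks in 11 of 11 cases in *Rex1*-high cells and in 10 of 11 in *Rex1*-low cells, and its increase was smaller in 10 of 11. By the median CpG it lay below them in 8 of 11 in each library, and above them at *Grb10* and both *Gnas* windows. At *Igf2r* the flanks went from 65.2% to 91.2% and at *Snrpn* from 63.2% to 97.1%. The *Gnas* flanks were low, at 23.5% and 34.4% around the upstream window and 21.2% and 27.3% around the downstream one. Those of *Grb10* were lowest, at 12.8% and 15.7%, where 132 CpGs had a median of 0 in both libraries.

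The number of measured CpGs in a tile moved with these values. Tiles with 20 to 39 CpGs had a median level of 17.7% and 21.4%, and tiles with 40 or more had 12.2% and 13.7%. Set against all tiles with 20 or more CpGs, the increase at *Peg3* was larger than that of 92.1% of them, at *Mest* than 90.7%, at *Snrpn* than 90.5% and at *Plagl1* than 87.9%. That at *Impact* was larger than 28.3% and at *Gnas* downstream than 56.2%. The remaining windows, not called, ranked close to *Plagl1* apart from *Grb10* (71.2%). Their shares were 85.7% at *Gnas* upstream, 85.5% at *Peg10*, 85.2% at *Igf2r* and 84.7% at *Kcnq1ot1*. Against all tiles the same increases ranked lower. They were larger than those of 39.8% of tiles at *Peg3*, 29.5% at *Mest*, 28.4% at *Snrpn* and 20.04% at *Plagl1*. At *Impact* this share was 5.02% and at *Gnas* downstream 8.65%. In the remaining windows it ran from 11.2% at *Grb10* to 17.1% at *Gnas* upstream. *Peg3*, *Snrpn*, *Kcnq1ot1* and *Peg10* themselves had fewer than 20 measured CpGs. *Mest* had 22, but over 6 kb rather than the 2500 bp of a tile, so it too had fewer measured CpGs per kb than these tiles. These numbers count CpGs kept in both libraries, so they follow read coverage and are not the CpG density of the sequence. The *Peg3* window, for example, had 6 such CpGs but 27 listed positions in *Rex1*-high and 38 in *Rex1*-low cells. Tiles with fewer measured CpGs had median increases of 24.8 points with 3 to 9 CpGs and 22.9 points with 10 to 19. Both exceeded the change in level of every window. How far the number of measured CpGs or the CpG density accounts for the smaller increase in the windows was not tested.

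**Figure D4:**
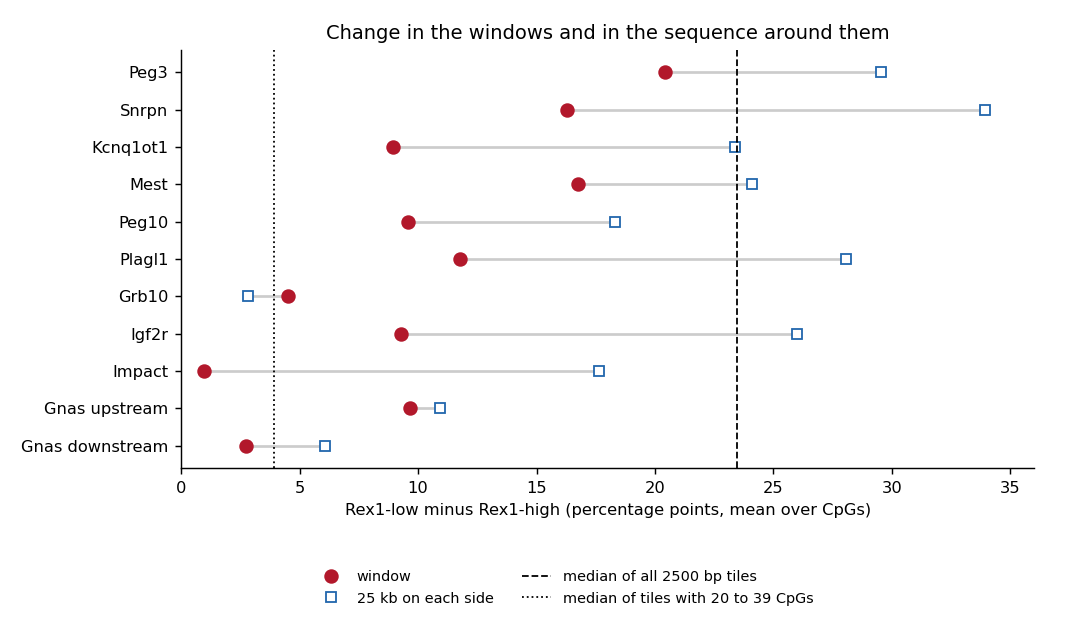
Change in level from *Rex1*-high to *Rex1*-low (percentage points) in each window (red circles) and in the 25 kb on each side (open blue squares), with dashed and dotted lines at the medians of all tiles (23.5) and of tiles with 20 to 39 CpGs (3.93). Each window lies left of its flanks except *Grb10*, and all lie right of 0.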

How the data were processed

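RRBS of 1 *Rex1*-high and 1 *Rex1*-low library was analysed. Per the labels and methods, the authors used Bismark (0.7) and Galaxy to turn reads into calls on mm9. The authors deposited, for each line, whole-number methylated and total calls (used here) and a score of 1000 times their ratio (not used), with 1 or 2 lines per position and no strand. Lines under 5 calls were dropped. The study's minimum is 5 reads per CpG, to which merging the lines first, tried as an alternative, is closer. The fraction of a CpG was the mean over its kept lines, and CpGs kept in both libraries were compared. Tiles of 2500 bp and windows needed 3 CpGs. Single CpGs were tested by Fisher's exact test.

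Named CpGs were the deepest of each window, others being marked where they occur. The 21 RefSeq promoters of the loci were placed by CpG spacing within 60 kb, requiring every measured position to fall on a CpG and at least 10 of them, which 6 met. No position was converted between builds. Their motifs were CCGG, TCGA and TGCCGC. Tests were tested on simulated data. The windows, lists and tests were chosen with earlier results of these data known. Software was Python 3.11.15 with SciPy 1.17.1, numba 0.67.0, pandas 2.3.3, NumPy 2.4.6 and matplotlib 3.10.9.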

Additional observations from a re-analysis of the deposited data

How the results depend on the processing

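Calls on 1 read and PCR copies are not independent, so intervals are too narrow, and with 1 library per state no difference between cultures or sorts could be separated from that between states. No paired analysis was possible because each state has 1 library, and for the same reason no library could be left out. Of 17 alternatives, 13 recomputed the change of each window, and 142 of these 143 changes were above 0, and the exception was *Impact* with the lower line of each CpG (-0.0844 points). At a minimum of 20 calls, where 10 of 11 windows could be tested, *Igf2r* and *Snrpn* lost significance.

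The median window level in *Rex1*-high and *Rex1*-low cells was 24.2% and 35.4% at a minimum of 20 calls, 4.84% and 18.8% with the median of CpG fractions, 11.4% and 23.2% without CpGs whose lines disagreed, 8.43% and 17.96% with the lower line of each CpG, and 28.5% and 36.7% with the higher line. In *Rex1*-low cells it was 30.0% by pooled calls, 29.8% with the deeper line and 30.1% when thinned to equal depth. More methylated windows numbered 7 at a minimum of 10 calls and 8 at a change of 5 points. More methylated CpGs numbered 46 at a minimum of 10 calls, 17 without CpGs whose lines disagreed, 14 when thinned and 11 at an adjusted p of 0.01. Less methylated CpGs numbered 3 at a minimum of 10 calls and 4 with the deeper line. The intermediate share was 14.0% and 26.6% with the deeper line, 17.1% and 28.6% without CpGs whose lines disagreed, 14.9% and 23.0% with the lower line and, in *Rex1*-high cells, 16.0% with the higher line. In *Rex1*-low cells it was 28.2% at a minimum of 10 calls, 28.6% at 20 calls and 20.05% when defined as 30% to 70%. The cause of these shifts was not tested.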
